A study of Homo sapiens with 16 samples.

Results

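IL15, its private receptor chain IL15RA and the ligands by which an epithelial cell shows stress to cytotoxic lymphocytes were followed in Caco-2 cells exposed to gliadin preparations. The members were the 8 genes IL15, IL15RA, MICA, MICB, ULBP1, ULBP2, ULBP3 and HLA-E, taken by the gene name printed on the array, with every probe that was not a control. They had 13 of the 41000 probes of the array, and all 13 were among the 40982 probes tested.

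Caco-2 is an established human line derived from a colon carcinoma and was used here before differentiation. Total RNA was hybridised to 16 Agilent 1-colour arrays, 4 for each condition. MED-CTL cells were kept in medium for 6 h. The other cells received for 6 h the synthetic gliadin peptide p31-43 at 150 µg/ml, gliadin digested with pepsin and trypsin (PT-G), or the same enzymes taken through the digestion without any substrate (PT). Both enzymes had been inactivated by heat, and PT served as the negative control of PT-G. The study found no endotoxin in PT-G. It describes no such test for PT, which it holds unlikely to be positive. Cells of all 4 conditions were in medium with reduced serum and were detached with trypsin-EDTA before RNA extraction, MED-CTL included. No lymphocytes were in the cultures, and the 4 experiments used cells of 1 line that differed by few passages. The doses of PT and PT-G are not given in the sources used here.

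IL-15 is a cytokine that epithelial and myeloid cells hold on their surface bound to IL15RA and present to neighbouring lymphocytes through the shared beta and gamma chains. In the coeliac intestine it is known for arming intraepithelial lymphocytes, which then kill enterocytes through the activating receptor NKG2D. MICA, MICB and the ULBP proteins are the ligands of NKG2D, kept low on healthy cells and raised by heat shock, DNA damage, infection and transformation. HLA-E presents leader peptides of other class I molecules to the receptor pairs of CD94 with NKG2A, which inhibits, or NKG2C, which activates.

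The arrays fell into 4 runs, each a set with 1 array of every condition that shares a date in the file names, on 5 slides. Slide 4 held the PT array of run 3 and the p31-43 array of run 4, whose MED-CTL arrays lay on slides 3 and 5. Every other treated array shared a slide with the MED-CTL array of its run. Runs 1 and 2 were scanned in one month and runs 3 and 4 in a later one, with 8 arrays in each pair of runs. MED-CTL replicates 1 and 2 belonged to runs 2 and 1, whereas every other replicate number equalled its run. Values are given below in the order of the runs, as log2 of the quantile-normalised median intensity, and a level of one probe says nothing about the level of another. Between 27660 and 33947 spots per array lay well above background, and the median intensity per array ranged from 153 to 410 against a median local background of 48 to 65. On every array 8 or 9 of the 9 epithelial markers exceeded background, and their summed intensity ranged from 859870 to 1081160. Of the 17 receptors and effectors of cytotoxic lymphocytes, 5 to 7 were above background per array, except for 12 on MED-CTL replicate 4, with a summed intensity of 4774 to 6251. The pan-leukocyte gene PTPRC was above background on 0 of the 16 arrays and KLRK1, which encodes NKG2D itself, on 1. CD8B, a chain of the T-cell coreceptor, was above background on all 16. So were CD3E, CD3G, CD8A and HCST, which with CD8B made 5 of the 17 by the brightest probe of each gene.

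Among the members, MICB had the largest differences from MED-CTL under PT and PT-G, and MICA the next largest. Their promoters are shown because the mean differences of these neighbouring genes from MED-CTL were above 0 under PT and PT-G, although MICA passed no test for PT-G over all arrays. The sequences are the 250 bases before the RefSeq start of each gene in build GRCh38.p14, both on the plus strand, MICA at chr6:31403345-31403594 and MICB at chr6:31497895-31498144. Capitals mark 3 motifs searched on both strands, the core of a heat shock element (GAANNTTC), the CCAAT box (CCAAT) and the GC box (GGGCGG).
MICA: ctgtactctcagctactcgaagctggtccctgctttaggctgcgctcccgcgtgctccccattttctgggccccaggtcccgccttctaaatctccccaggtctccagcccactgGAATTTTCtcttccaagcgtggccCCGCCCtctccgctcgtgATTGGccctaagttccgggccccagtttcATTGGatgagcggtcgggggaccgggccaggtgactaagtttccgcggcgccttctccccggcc
MICB: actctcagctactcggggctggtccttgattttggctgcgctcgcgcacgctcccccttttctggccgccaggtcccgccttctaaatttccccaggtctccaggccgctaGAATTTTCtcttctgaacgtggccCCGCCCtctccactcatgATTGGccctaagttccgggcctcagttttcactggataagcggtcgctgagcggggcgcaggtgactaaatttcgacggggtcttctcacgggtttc
The 2 stretches were identical at 209 of 246 aligned bases (85%). Each held 1 match to the heat shock element core, from 135 to 128 bases before the start in MICA and from 139 to 132 in MICB. Of 35116 RefSeq promoters, 5.78% held such a match in the same window, 32% a CCAAT box and 42.6% a GC box. ULBP1, ULBP2 and ULBP3 had no match to the heat shock element core, nor did any of the 4 entries of IL15RA. The AP-1 motif TGANTCA, held by 6.57% of promoters and not overlapping the other motifs, was absent from the windows of MICA, MICB and the ULBP genes. It had a match in 3 of the 4 entries of IL15RA. No promoter entry matched IL15 or HLA-E.

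MICB, by its brighter probe A_23_P387471, was well above background on every array. It read 11.27, 10.97, 11.76 and 11.28 on the MED-CTL arrays of runs 1 to 4. Under PT it read 11.94, 11.66, 12.58 and 12.27. PT was higher than MED-CTL in each of the 4 runs, by 0.67 to 0.99, although the MED-CTL array of run 3 lay above the lowest PT array. In run 3 the PT and MED-CTL arrays lay on different slides. The mean difference was 0.79 (SE 0.21), a fold of 1.73 with a 95% confidence interval of 1.26 to 2.38, and the unadjusted p was 0.00234 in limma. After Benjamini-Hochberg adjustment over all probes tested the p was 0.131, and with the run as a block in the limma model it was 0.00110.

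Under PT-G the same MICB probe read 11.80, 11.74, 12.22 and 12.02 in runs 1 to 4. PT-G was again higher than MED-CTL in each of the 4 runs, by 0.46 to 0.78, with a mean difference of 0.63 (SE 0.21) or 1.54-fold. The MED-CTL array of run 3 lay just above the lowest PT-G array. The unadjusted p of 0.0109 missed the study's threshold of 0.01, and the adjusted p was 0.306 in limma. With the run as a block the adjusted p was 0.00401, and with the replicate number of the labels as a block it was 0.0214 in limma. Between PT-G and PT the probe differed by −0.17, with a 95% confidence interval from −0.62 to 0.29 on the log2 scale.

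The p31-43 arrays read 11.38, 10.77, 11.38 and 11.27 for this brighter MICB probe, to which the values of this paragraph belong. These values overlapped those of MED-CTL, with a mean difference of −0.12 and a 95% confidence interval from −0.58 to 0.34. Every PT-G array lay above every p31-43 array, as was true of 2.94% of all probes tested, and so did every PT array, as was true of 2.6%. In comparisons chosen after the values were seen, MICB was 0.74 higher under PT-G than under p31-43 (SE 0.21, unadjusted p 0.00361, adjusted p 0.151 in limma) and 0.91 higher under PT than under p31-43 (SE 0.21, unadjusted p 0.000786, adjusted p 0.0751). The brighter MICB probe was the 1 probe of 13 with an unadjusted p under 0.01 in each of these comparisons, against 3.73% and 3.15% of all probes tested. PT, PT-G and p31-43 are compared with the same 4 MED-CTL arrays, so their differences from MED-CTL are not independent of each other.

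**Figure D1:**
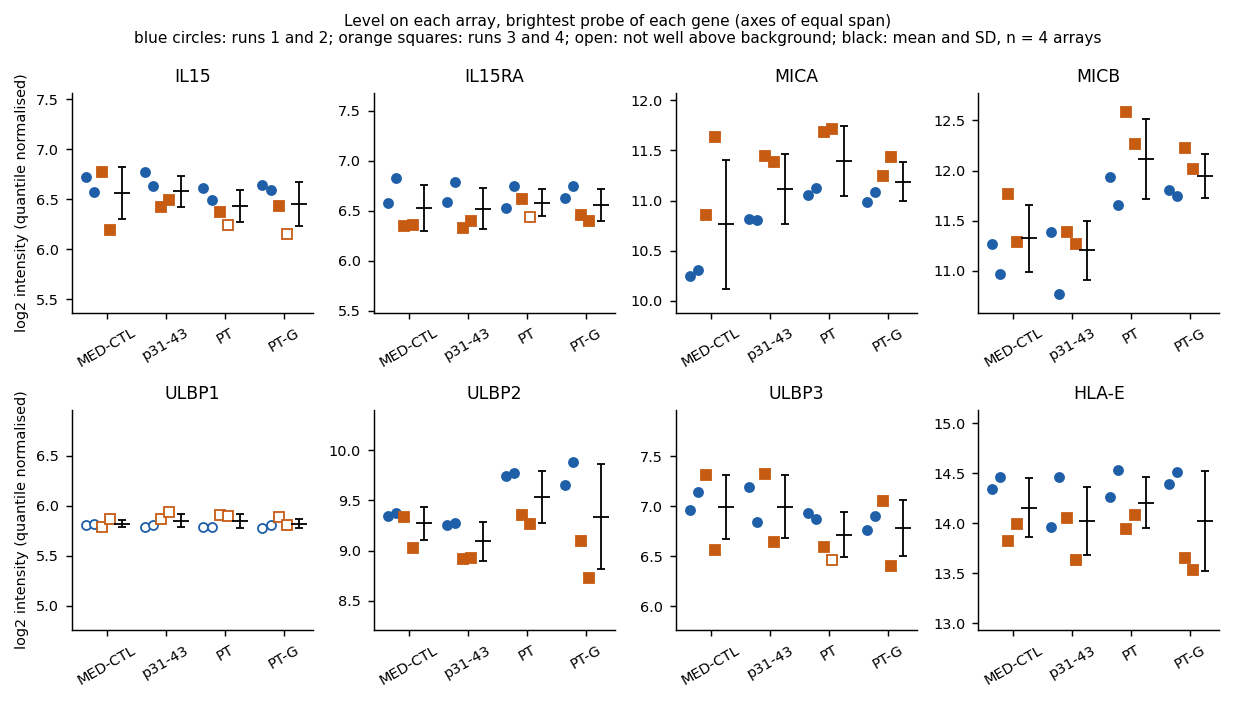
Level of each of the 8 genes on the 16 arrays, by the brightest probe, as log2 quantile-normalised intensity (vertical axis, the same span in every panel) for each condition (horizontal axis), with arrays in the order of runs 1 to 4, circles for runs 1 and 2, squares for runs 3 and 4, open symbols where the probe was not well above background, and the mean and SD of 4 arrays in black. By its brightest probe MICB was higher under PT and PT-G than under p31-43 on all arrays, MICA was higher in runs 3 and 4 than in runs 1 and 2 in every condition, and ULBP1 was at background throughout.

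The second MICB probe, A_24_P169688, gave smaller differences. It read 9.26, 9.15, 9.66 and 9.89 in MED-CTL, 9.94, 9.69, 10.12 and 9.94 under PT, and 9.84, 9.80, 9.90 and 9.80 under PT-G. PT was higher in each of the 4 runs by 0.056 to 0.69, whereas PT-G was higher in 3 of the 4 and 0.090 lower in run 4. The mean differences were 0.44 (SE 0.15) for PT and 0.35 (SE 0.15) for PT-G, with adjusted p of 0.314 and 0.572 in limma. With the run as a block these became 0.0324 and 0.0878. Both probes of MICB thus pointed the same way, and the brighter one gave the larger difference from MED-CTL in both comparisons. Under p31-43 the second probe read 9.47, 9.20, 9.70 and 9.65. Every PT-G array lay above these values, as was true of 2.94% of all probes tested, but the lowest PT array lay just below the highest p31-43 array. Its differences from p31-43 were 0.42 for PT and 0.33 for PT-G (SE 0.15 each, adjusted p 0.414 and 0.582 in limma).

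MICA, the other MIC ligand of NKG2D, has 1 probe, which was well above background on all arrays. It read 10.24, 10.31, 10.86 and 11.64 in MED-CTL and 11.06, 11.12, 11.69 and 11.71 under PT. PT-G gave 10.99, 11.08, 11.25 and 11.43, and p31-43 gave 10.82, 10.80, 11.45 and 11.38. The MED-CTL range held every treated array but the PT arrays of runs 3 and 4, and its lowest values were those of runs 1 and 2. PT was higher than MED-CTL in each of the 4 runs, by 0.82, 0.82, 0.83 and 0.075. The mean difference was 0.63 (SE 0.28, 1.55-fold) with an adjusted p of 0.509 in limma, which fell to 0.0246 with the run as a block. For PT-G the difference was 0.43 (SE 0.28, adjusted p 0.881 in limma, 0.126 with the run as a block), higher in 3 of 4 runs and 0.20 lower in run 4. For p31-43 it was 0.35 (SE 0.28, adjusted p 1.00 in limma), also higher in 3 of 4 runs and lower in run 4. Leaving out MED-CTL replicate 4, the highest MED-CTL array, raised the differences to 0.93 for PT (adjusted p 0.0788 in limma), 0.72 for PT-G (adjusted p 0.207, unadjusted p 0.00725 in limma) and 0.64 for p31-43. Leaving out MED-CTL replicate 1 lowered them to 0.48, 0.28 and 0.20, and leaving out MED-CTL replicate 2 to 0.46, 0.26 and 0.18. MICA under PT-G lay 0.21 below PT, with a 95% confidence interval from −0.80 to 0.39. MICA and MICB share much of their sequence, and how far each probe also takes up RNA of the other gene was not tested.

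The ULBP proteins are NKG2D ligands tethered mostly by a lipid anchor. ULBP1 was not well above background on any of the 16 arrays, its log2 values lying between 5.78 and 5.94, so no change is given for it. ULBP2 was above background on all 16 by each of its 3 probes. Only A_23_P168259 lists ULBP2 transcripts alone, whereas A_23_P145485 and A_24_P149314 also list the transcripts of its close relatives RAET1L and RAET1G. The first probe read 9.34, 9.37, 9.34 and 9.02 in MED-CTL, 9.74, 9.78, 9.35 and 9.27 under PT, and 9.66, 9.88, 9.09 and 8.73 under PT-G. PT was higher in each of the 4 runs by 0.015 to 0.40, with a mean difference of 0.27 (SE 0.22, adjusted p 0.813 in limma). PT-G was higher in runs 1 and 2 and lower in runs 3 and 4, with a mean difference of 0.069 (SE 0.22). Under p31-43 it read 9.25, 9.27, 8.91 and 8.92, lower than MED-CTL in each of the 4 runs, with a mean difference of −0.18 (SE 0.22, adjusted p 1.00 in limma). For the probe A_23_P145485, shared by 3 transcripts, the difference was 0.47 (SE 0.23) under PT and 0.40 (SE 0.23) under PT-G, with adjusted p of 0.586 and 0.808 in limma. The third probe, A_24_P149314, gave 0.26 and 0.11 (SE 0.20 each). Under p31-43 these 2 probes did not share the direction of the first in every run. A_23_P145485 differed by 0.10 (SE 0.23), higher in 3 of 4 runs, and A_24_P149314 by −0.076 (SE 0.20), higher in 2 and lower in 2. A block for the run brought none of the 3 probes to an adjusted p under 0.05, the lowest being 0.0791 for A_23_P145485 under PT.

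ULBP3 was dim. Its probe was above background on 15 of 16 arrays, all but PT replicate 4. It read 6.96, 7.14, 7.31 and 6.57 in MED-CTL, 6.94, 6.88, 6.59 and 6.46 under PT, and 6.77, 6.90, 7.06 and 6.41 under PT-G. Every treated array of these 2 conditions was lower than the MED-CTL array of its run, in contrast to the direction of MICB. The mean differences were −0.28 (SE 0.19) for PT and −0.21 (SE 0.19) for PT-G, with adjusted p of 0.774 and 1.00 in limma. With the run as a block the adjusted p was 0.198 for PT and 0.400 for PT-G, so the shared direction did not pass the test. Under p31-43 the difference was 0.0016 (95% confidence interval from −0.41 to 0.42).

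**Figure D2:**
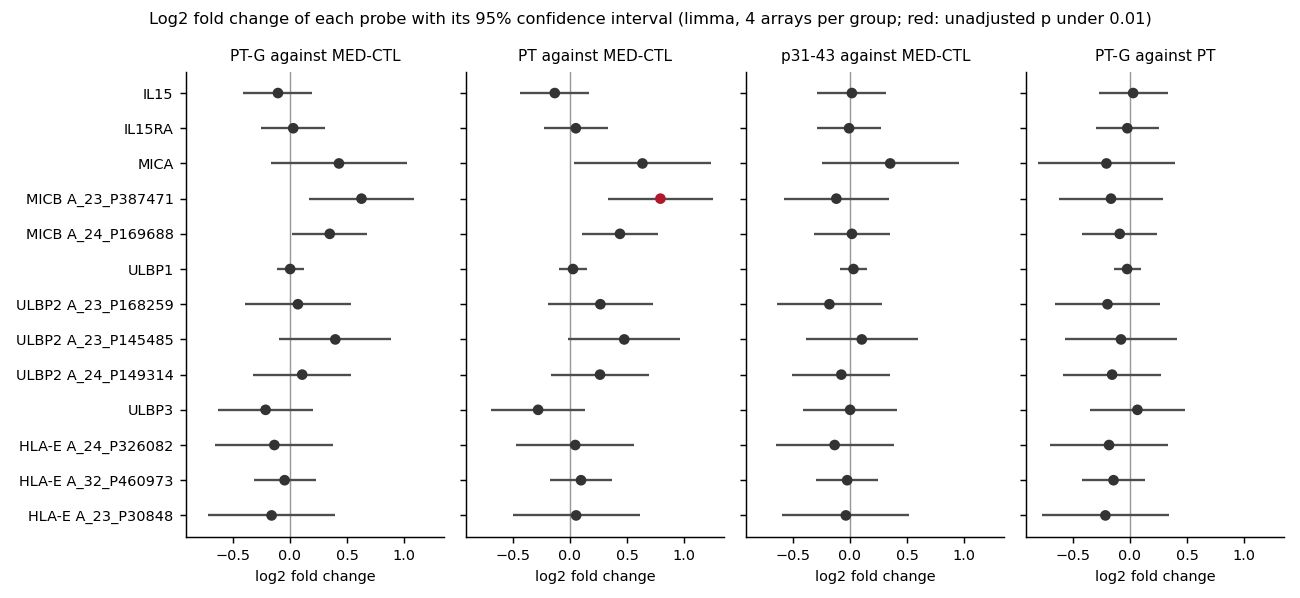
Log2 fold change (horizontal axis) of each of the 13 probes (vertical axis) with its 95% confidence interval from the limma model of all 16 arrays, in the 4 comparisons. The interval of the brighter MICB probe lay above 0 for PT-G and PT, the red point marks its unadjusted p of 0.00234 under PT, and every interval of p31-43 against MED-CTL and of PT-G against PT held 0.

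IL15 itself was close to background. Its probe was above background on 14 of the 16 arrays, the exceptions being PT replicate 4 and PT-G replicate 4. It read 6.72, 6.57, 6.77 and 6.19 in MED-CTL, 6.77, 6.63, 6.42 and 6.49 under p31-43, 6.61, 6.49, 6.37 and 6.24 under PT, and 6.65, 6.59, 6.43 and 6.16 under PT-G. The 4 conditions overlapped throughout. The mean difference from MED-CTL was −0.10 for PT-G (95% confidence interval from −0.41 to 0.20), −0.13 for PT (−0.43 to 0.17) and 0.017 for p31-43 (−0.28 to 0.32). The upper bounds leave out a rise of more than 1.15-fold, 1.12-fold and 1.25-fold in this model, on intensities that were not background-corrected and so understate changes of a dim probe. PT-G and PT differed by 0.028 (−0.27 to 0.33).

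IL15RA, the chain that carries IL-15 to the cell surface, was above background on 15 of 16 arrays, all but PT replicate 4, and was as dim. Over the 16 arrays it ranged from 6.32 to 6.83. The differences from MED-CTL were 0.028 for PT-G, 0.051 for PT and −0.0076 for p31-43 (SE 0.13 each), and the adjusted p in limma was 0.950 or higher in all 3. The conditions overlapped, and the 4 highest values were the 4 arrays of run 2.

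HLA-E was bright by all 3 of its probes. A_24_P326082 read 14.34, 14.46, 13.83 and 14.00 in MED-CTL, 14.26, 14.53, 13.94 and 14.09 under PT, and 14.39, 14.51, 13.65 and 13.53 under PT-G. Under p31-43 it read 13.96, 14.46, 14.05 and 13.63, with run 3 above run 1. The conditions overlapped, and runs 1 and 2 were higher than runs 3 and 4 in MED-CTL, PT and PT-G. Its difference from MED-CTL was 0.046 (SE 0.24) for PT, −0.14 (SE 0.24) for PT-G and −0.13 (SE 0.24) for p31-43. Over the 3 probes the differences from MED-CTL lay between −0.16 and 0.097, and the lowest adjusted p was 0.888 in limma.

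Counted over the 13 probes, 0 had an unadjusted p under 0.01 for PT-G against MED-CTL, where 3.44% of all probes tested did, and 2 had one under 0.05 in limma, against 7.98%. For PT against MED-CTL the count was 1 of 13, the brighter MICB probe, against 3.64% of all probes, and 3 had an unadjusted p under 0.05, against 8.98%. For p31-43 against MED-CTL and for PT-G against PT it was 0 of 13, against 0.388% and 0.0903% of all probes, and no member probe had an unadjusted p under 0.05 in limma, against 2.15% and 0.781%. No member probe reached an adjusted p under 0.05 in any of the 4 comparisons, where 0.944%, 0.82%, 0% and 0% of all probes did. The median log2 fold change of the 13 probes was 0.028 for PT-G, 0.097 for PT and −0.0076 for p31-43, against −0.0059, −0.01 and −0.0011 over all probes tested. For PT-G against PT it was −0.14, against 0.0069 over all probes. Several of the 13 probes report the same gene on the same arrays, so they are not independent. No member probe was higher on all 4 PT-G arrays than on all 4 MED-CTL arrays, nor on all 4 PT arrays, which 2.01% and 2.36% of all probes were.

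With the run as a block, 2 of the 13 probes had an unadjusted p under 0.01 for PT-G and 4 for PT, against 9.16% and 10.3% of all probes in the same limma model. At an adjusted p under 0.05 this left 1 probe for PT-G, the brighter one of MICB, against 5.75% of all probes. For PT it left 3, both MICB probes and MICA, against 6.56%.

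**Figure D3:**
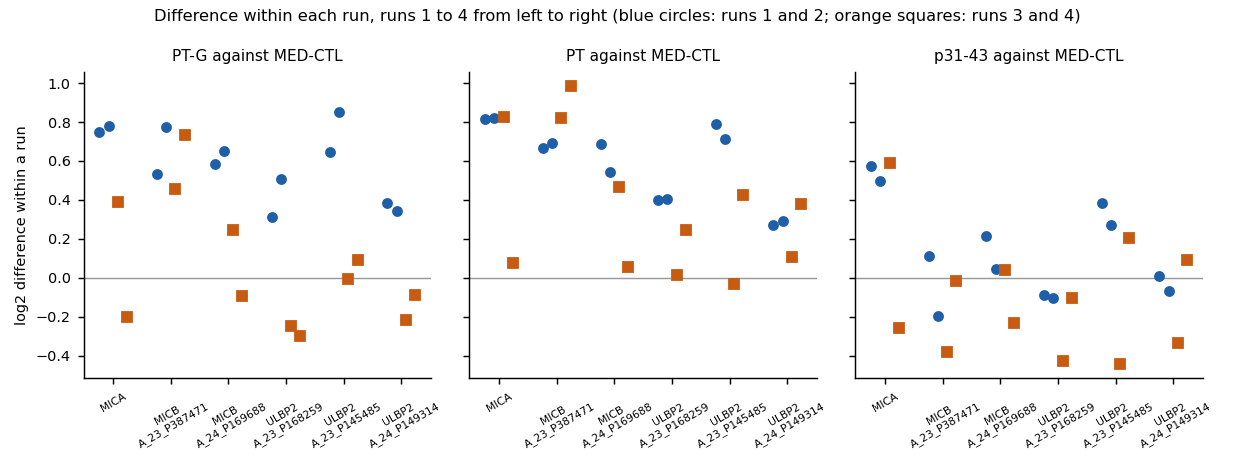
Log2 difference from the MED-CTL array of the same run (vertical axis) for the probes of MICA, MICB and ULBP2 (horizontal axis) under PT-G, PT and p31-43, with runs 1 to 4 from left to right at each probe, circles for runs 1 and 2 and squares for runs 3 and 4. The brighter MICB probe was above 0 in all runs under PT-G and PT, whereas ULBP2 under PT-G lay above 0 in runs 1 and 2 and, by A_23_P168259 and A_24_P149314, below 0 in runs 3 and 4.

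Most members differed between the pairs of runs. With the condition in the limma model, 11 of the 13 probes differed between runs 3 and 4 and runs 1 and 2 at an adjusted p under 0.05, against 25.8% of all probes tested. This test counts the 8 arrays of a pair as independent, although each pair holds only 2 runs. Its SE and p therefore take too little account of the spread between runs, and they describe these runs only. MICA and both MICB probes were higher in runs 3 and 4, by 0.62 (SE 0.11) for MICA and by 0.41 (SE 0.11) and 0.29 (SE 0.078) for MICB. The other 8 were lower. HLA-E fell by 0.27 to 0.53, ULBP2 by 0.41 to 0.46, IL15RA by 0.26 (SE 0.059) and IL15 by 0.25 (SE 0.076). ULBP1 and ULBP3 did not pass the test, with adjusted p of 0.131 and 0.426 in limma. What differed between the pairs of runs (cells, labelling, hybridisation or scan) cannot be told apart, since the labels give no more than the runs.

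**Figure D4:**
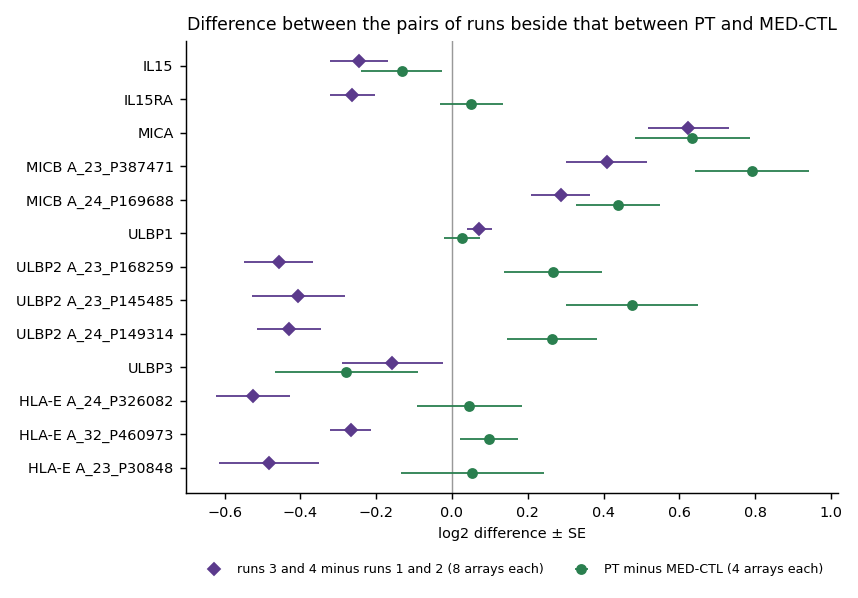
Log2 difference (horizontal axis, with SE) of each of the 13 probes (vertical axis) between runs 3 and 4 and runs 1 and 2 (diamonds, 8 arrays each) and between PT and MED-CTL (circles, 4 arrays each), both from the limma model with the pair of runs as a block. HLA-E, ULBP2, IL15 and IL15RA lay below 0 for the pair of runs, and MICA and MICB lay above 0 for both differences. The SE of the diamonds counts arrays as independent, although each pair holds only 2 runs.

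Whether a treatment acted differently in the pairs of runs was tested as an interaction. In limma no member probe reached an adjusted p under 0.05 in this test for any of the 3 treatments, where 0.0659% of all probes did for PT-G, 0.0854% for PT and 0.0634% for p31-43. For PT and p31-43 none had an unadjusted p under 0.05, against 3.5% and 2% of all probes. For PT-G, 5 of 13 had an unadjusted p under 0.05 and 1 under 0.01, against 2.21% and 0.583% of all probes. The latter was ULBP2 by A_23_P168259, whose PT-G difference was 0.68 lower in runs 3 and 4 (unadjusted p 0.00553, adjusted p 1.00 in limma). That ULBP2 difference was 0.41 in runs 1 and 2 alone and −0.27 in runs 3 and 4 alone. MICA under PT-G differed by 0.76 in runs 1 and 2 alone, where its adjusted p was 0.00783 in limma, and by 0.094 in runs 3 and 4 alone. Its interaction had an adjusted p of 1.00 in limma, with a PT-G difference lower by 0.67 in runs 3 and 4. Without MED-CTL replicate 3 that difference was lower by 1.06. That fit leaves 1 MED-CTL array in runs 3 and 4, replicate 4, the highest MED-CTL array of MICA, so no test is drawn from it. The brighter MICB probe gave 0.66 and 0.60 for PT-G, and 0.68 and 0.90 for PT, within the earlier and the later pair of runs.

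Other genes of the same pathways were taken from lists. ICAM1, the adhesion ligand of LFA-1 on lymphocytes, was 0.74 higher under PT-G and 0.74 higher under PT than in MED-CTL (SE 0.089 each, adjusted p 0.00136 and 0.00167 in limma). It was the 1 probe of 12, from 7 genes that are ligands of other NK cell receptors, to pass an adjusted p of 0.05 in either comparison. Of all probes tested, 0.944% passed it under PT-G and 0.82% under PT. Of the other ligands of NKG2D, 1 of 3 genes was on the array under its own name and was not above background. For the signalling chain behind the IL-15 receptor, 0 of 19 probes of 9 genes reached an adjusted p under 0.05. Of the receptor's shared chains, the beta chain gene IL2RB was above background on 0 of the 16 arrays and the gamma chain gene IL2RG on all 16. At an unadjusted p under 0.01, 1 of the 2 probes of CISH, a feedback inhibitor induced by STAT5, was higher under PT-G and PT. The differences were 0.51 and 0.49 (SE 0.13 each, unadjusted p 0.00215 and 0.00292, adjusted p 0.123 and 0.146 in limma). The other CISH probe, also above background on all 16 arrays, was 0.14 and 0.15 higher (SE 0.17 each, unadjusted p 0.426 and 0.413 in limma). At the same threshold the kinase JAK3 was 0.39 lower under p31-43 by 1 of its 3 probes (SE 0.12, unadjusted p 0.00724, adjusted p 1.00 in limma). With the run as a block the first CISH probe passed under PT-G and PT, with adjusted p of 0.0157 and 0.0185 in limma. The other CISH probe did not, with adjusted p of 0.386 and 0.305 in the same model. STAT5A, a transcription factor of this chain, was 0.28 lower under PT-G by 1 of its 2 probes (SE 0.11, adjusted p 0.476 in limma without the block). With the run as a block in limma the adjusted p of that probe was 0.0349. In this model 5.75% of all probes tested passed an adjusted p of 0.05 under PT-G and 6.56% under PT.

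None of the 32 probes of 15 genes for class I presentation, the 8 probes of 6 regulators of IL15 transcription, the 7 probes of 5 genes that shed NKG2D ligands or the 21 probes of the 17 lymphocyte genes had an unadjusted p under 0.01 in any of the 4 comparisons in limma. Of all probes tested, 3.44% did for PT-G, 3.64% for PT and 0.388% for p31-43 against MED-CTL, and 0.0903% for PT-G against PT. With the run as a block 1 of the regulators of IL15 passed under PT, the interferon regulatory factor IRF3, which was 0.47 higher (SE 0.24, adjusted p 0.635, and 0.0171 with the block in limma). At an adjusted p under 0.05 that block passed 6.56% of all probes tested under PT and 5.75% under PT-G. Of the 14 probes of epithelial markers, 1 rose at an adjusted p under 0.05 under PT-G, where 0.944% of all probes tested passed in either direction. It was KRT20, a keratin of differentiating enterocytes, which was 0.63 higher under PT-G (SE 0.12, adjusted p 0.0251 in limma) and 0.50 higher under PT (SE 0.12, adjusted p 0.0884). CDX2, a transcription factor of the intestinal epithelium, read the other way, 0.72 lower under PT-G and 0.64 lower under PT (SE 0.48 each, adjusted p 0.899 and 0.797 in limma), and with the run as a block its adjusted p was 0.0348 and 0.0523. STAT5A, IRF3 and CDX2 were named after their values were seen. The part of differentiation markers in the MICB values was not tested.

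For the members above background on all 16 arrays, the gene most alike in pattern was sought among 18621 probes that met the same condition. HLA-E went most closely with HLA-B (Pearson's r 0.974 over 16 arrays), another class I heavy chain. The nearest to MICB was RAB43 (r 0.939), to MICA SSR3 (r 0.943) and to ULBP2 ALAS1 (r 0.913). The 16 arrays share the conditions and the pairs of runs described above, so these are descriptions of the arrays.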

How the data were processed

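Probe intensities of 16 Agilent 1-colour arrays were taken from the authors' deposited scanner output, where each spot has a median and mean foreground intensity, a local background and marks for controls, outliers and signal well above background. The authors also deposited log2 values, which equal the quantile-normalised median foreground over all spots to within 5e-09. Here, as in the study, log2 median foreground was normalised with the quantiles method without background correction, which compresses changes of dim probes such as IL15. Control spots (1639 of 45015 on an array) were left out before this step, and 1774 spots marked as outliers over all arrays after it, none of them a member's, and no member spot was saturated. Spots of a probe were averaged. Probes with at least 3 unmarked arrays in every group (40982 of 41000) were tested in 1 limma 3.58.1 model of the 4 groups (R 4.3.3, 12 residual degrees of freedom, 2-sided moderated tests, Benjamini-Hochberg adjustment within a comparison). The thresholds were the study's unadjusted p of 0.01 and an adjusted p of 0.05. The study's filter and re-annotation of probes were not used.

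All 8 members were named with every probe, the brightest standing for the gene. List genes were named at an adjusted p under 0.05, or else an unadjusted p under 0.01. Members and lists were chosen with earlier results of these data known. The labels describe 4 independent experiments. Deviations from group means of arrays with the same replicate number correlated at 0.395 to 0.858 for PT-G with MED-CTL and 0.263 to 0.708 for p31-43 with MED-CTL. They correlated at −0.0176 to 0.410 for PT with MED-CTL and 0.0370 to 0.695 for PT-G with PT. By run, the 4 correlations lay at 0.625 to 0.858, 0.536 to 0.708, −0.0176 to 0.618 and 0.0370 to 0.695, in the same order. The difference between the pairs of runs was not removed, and arrays with unlike numbers were not compared. The correlations therefore cannot show that arrays of 1 number or run belong together. Blocks for replicate number, run, slide and pair of runs, other backgrounds, scalings and filters, array weights and leaving out each array were tried. The model was tested on simulated data. Sequences are from RefSeq (GRCh38.p14), with a promoter entry for 6 of the 8 genes. The files name no genome build for the probes, so their positions are not given. The number of arrays limits the precision.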

Additional observations from a re-analysis of the deposited data

Results flagged for a closer look

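In 2 of 52 groups of 4 arrays tested for an outlying array (13 probes in 4 conditions), 1 array stood apart from the other 3, where chance gives about 1 in 20. Both are the MED-CTL array of replicate 4 for ULBP2. By A_23_P168259 it read 9.02 against 9.34 on the nearest of the others, and by A_24_P149314 it read 7.44 against 7.88, so it lay lowest in both. These 2 probes report the same gene on the same array and are not independent. Leaving this array out moved the difference of A_23_P168259 under PT-G from 0.069 to −0.013 and under PT from 0.27 to 0.18.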

How the results depend on the processing

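Over 720 recomputed differences of single members, 624 kept their direction and their side of an unadjusted p of 0.01, 36 came to pass it, 5 no longer passed it, 55 changed sign with neither value past it, and 0 changed sign after passing it. For PT-G with MED-CTL the count of member probes at an unadjusted p under 0.01, 0 of 13, became 1 with the processed signal scaled to its 75th percentile, with median scaling, with the replicate block and with only the 2 groups compared, 2 with a block for run, slide or pair of runs, 3 with array weights and 5 in runs 1 and 2 alone. Its count at an adjusted p under 0.05, also 0, became 1 under each of the 4 blocks and 3 in runs 1 and 2 alone. For PT with MED-CTL the count of 1 became 2 with the mean foreground, 3 with the pair of runs as a block, 4 with the replicate block, a block for run or slide, or array weights, and 5 in runs 1 and 2 alone. Its adjusted count of 0 became 2 with the replicate block, with the pair of runs as a block and in runs 1 and 2 alone, and 3 with a block for run or slide. For p31-43 both counts became 1, MICA, in runs 1 and 2 alone. The causes were not tested, beyond that a block or a single pair of runs takes the difference between runs out of the spread.

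With the replicate block the adjusted p of MICB under PT was 0.00681 and that of MICA 0.0340 in limma, and the call of no other member at an adjusted p under 0.05 changed apart from MICB under PT-G. Leaving out 1 array gave 0 to 2 probes at an unadjusted p under 0.01 for PT-G (1 without MED-CTL replicate 3, MICB, and 2 without MED-CTL replicate 4, MICA and the second MICB probe) and 1 to 3 for PT (2 without PT replicate 2 and 3 without MED-CTL replicate 4). The interaction of PT-G with the pair of runs gave 0 to 1. The other adjusted counts stayed at 0 when 1 array was left out. Leaving out an array of a pair of runs leaves 1 array in that arm, which is assumed to vary like the others. IL15, IL15RA and ULBP3 lay so near background that their differences are understated.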
